A study of Mus musculus with 117 samples.

Results

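Bronchial papillary adenoma, a benign gland-forming tumour of the mouse lung, was compared with cells sorted from normal mouse lung. The comparison took in 24 of the 117 arrays of the series: the 14 tumours labelled bronchial papillary adenoma, and all 10 sorted samples of normal lung. The sorted samples were 3 of Prom1-positive cells and 7 of Prom1-negative cells, called positive and negative samples here. Prom1 encodes the membrane protein prominin 1 (CD133). The reference was the mean of both sorted group means, so that each counted equally. All mice were C57BL/6. The design text speaks of conditional Prom1 mutants that developed tumours, and the labels give no Prom1 status for the tumours. The alleles, the driver of recombination, other agents, ages and times are not given in the sources used here. Tumours were frozen as pieces right after death, whereas the sorted cells came from tissue dissociated into single cells and passed over anti-Prom1 beads, so tumour state and handling cannot be told apart in any comparison below. A tumour piece holds stroma, vessels and blood cells beside the tumour cells. Whether each sample stands for a mouse of its own is not stated in the labels. The p-values of differences measure only the spread between samples within groups. That spread was estimated over all 117 arrays, except where a fit on the lung arrays alone is named.

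The alveoli of the lung are lined by flat type 1 cells, across which gas passes, and by cuboidal type 2 cells, which make, store and secrete surfactant and can divide to replace type 1 cells. The small airways hold club cells, which secrete protective proteins and metabolise foreign compounds, beside ciliated cells that move mucus. Papillary adenomas of the mouse lung form fronds of epithelium on a thin core of stroma, and the cells of such tumours often carry markers of type 2 or club cells.

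Expression was measured on Affymetrix 3′ arrays as log2 values, on which a difference of 1 is a 2-fold change. The levels of different probe sets are not compared. Upper quartiles of the arrays ran from 6.16 to 6.47 in the adenomas, from 6.08 to 6.45 in the negative samples and from 5.85 to 6.51 in the positive samples, the lowest being positive sample 4. The log2 ratio of 3′ to 5′ Actb control signals, a sign of RNA degradation, was 0.69 ± 0.24 (SD, n = 14) in the adenomas, 0.57 ± 0.11 (SD, n = 7) in the negative and 1.05 ± 0.06 (SD, n = 3) in the positive samples. The sample codes of the adenomas and of the sorted samples form separate ranges. The number of arrays, above all the 3 positive ones, limits the precision.

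Among the adenomas and the negative samples, 1 array of each group stood apart. The 3 positive samples were not screened for genes set apart. Positive sample 1 had the lowest correlation with the rest of its group of all 24 lung arrays, 0.937. Adenoma 1 (adenomas are numbered in accession order, as names only) had the most genes more than 2 log2 units above every other adenoma. Among them was Nppa, by 7.47. Any other adenoma had at most 21 such genes. The mean level of the cardiac muscle list was 9.73 in adenoma 1 and 3.06 to 5.21 in adenomas 2 to 14. Its club cell list (11.04 against 7.18 to 9.75) and ciliated cell list (6.84 against 3.53 to 5.06) were also higher, and its type 2 cell list was lower (9.59 against 10.69 to 11.42). Negative sample 7 had 372 genes more than 2 units below every other negative sample, against at most 4 for any other. Its endothelial list was at 6.69 against 9.72 to 10.48 in negative samples 1 to 6, its type 1 list at 5.41 against 7.04 to 9.83, and its T and NK cell list at 8.22 against 5.96 to 7.70. Gene lists whose counts moved by 2 or more genes without adenomas 1 and 6 and negative sample 7 are also given without these arrays, or without the one of them that is named.

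**Figure D1:**
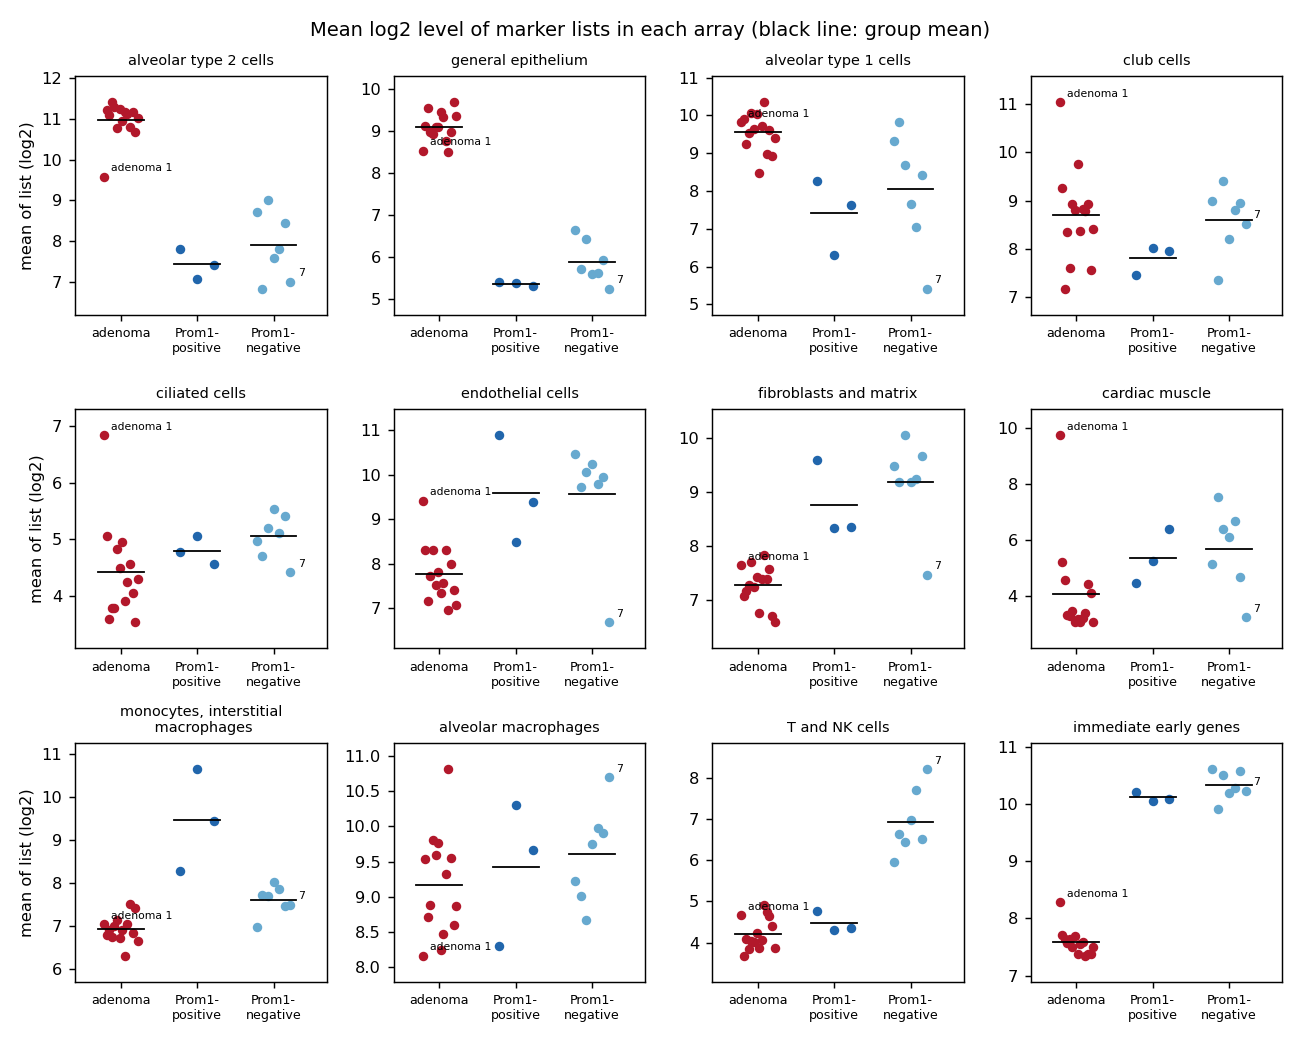
Mean log2 level of 12 marker lists in each of the 24 lung arrays (one point per array, y axis in log2 units), for the 14 adenomas, the 3 Prom1-positive and the 7 Prom1-negative samples. The general epithelium list lies between 8.50 and 9.69 in the adenomas, above every sorted sample, and the cardiac muscle list of adenoma 1 stands at 9.73.

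Of 14663 genes tested with limma, 3425 (23.4%) were higher and 2890 (19.7%) lower in the adenomas than in the sorted lung cells, at an adjusted p under 0.05. The median difference over all genes was -0.0029. Both directions were thus common, and the counts of every gene list below are read against these shares. In all, 6315 (43.1%) were called. In 633 of the called genes (4.32% of those tested) all adenomas lay above all sorted samples, and in 277 (1.89%) all lay below. Against the positive samples alone, 2490 genes (17.0%) were higher and 1929 (13.2%) lower, 4419 (30.1%) in all. Against the negative samples alone, 3123 (21.3%) were higher and 2711 (18.5%) lower, 5834 (39.8%) in all. These comparisons share the adenomas and are only set side by side. Without positive sample 4, the calls against the positive samples numbered 2870 in place of 4419. With the upper quartile of each array as a covariate, the split became 3087 higher and 3251 lower against both sorted groups, and 1932 higher and 2317 lower against the positive samples. Without adenomas 1 and 6 and negative sample 7, 6520 genes were called in place of 6315. Among the adenomas and negative samples, these 3 arrays correlated least with the rest of their groups. The positive samples, all kept here, correlated with theirs at 0.937 to 0.962, lower than adenoma 6 did (0.967).

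Markers of alveolar type 2 cells were higher in the adenomas. Of 15 tested, 13 rose and none fell, with a median difference of 3.21, and in 9 of them no adenoma overlapped a sorted sample. The same number, 13, rose against the positive and against the negative samples alone. Sftpd, a collectin of surfactant that binds microbes, lay from 12.56 to 13.35 (median 13.09) in the adenomas, at 9.67, 7.59 and 8.28 in the positive samples and from 7.24 to 11.39 (median 9.20) in the negative samples. Every adenoma was above every sorted sample, and the difference was 4.08 (SE 0.71, adjusted p = 7.68e-07). Sftpa1, the other surfactant collectin on the list, lay from 12.96 to 13.57 (median 13.41) in the adenomas, at 11.02, 8.90 and 10.25 in the positive samples and from 8.71 to 12.04 (median 10.41) in the negative samples, again with no overlap (3.09, SE 0.42, adjusted p = 1.15e-09).

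The genes for building and packing surfactant rose with the collectins. Abca3, the lipid pump of the lamellar bodies in which surfactant is stored, lay from 9.69 to 12.18 (median 11.76) in the adenomas, at 8.75, 8.75 and 9.01 in the positive samples and from 8.22 to 9.55 (median 8.56) in the negative samples. The lowest adenoma, adenoma 1, was still above the highest sorted sample, and the difference was 2.75 (SE 0.26, adjusted p = 4.25e-16). Slc34a2, a phosphate transporter of type 2 cells, rose by 4.34 (SE 0.49, adjusted p = 9.90e-13). Lpcat1, which remodels surfactant phosphatidylcholine, rose by 3.21, and Napsa and Ctsh, proteases that process surfactant proteins, by 2.20 and 2.29. Etv5, a transcription factor of type 2 cells downstream of FGF signals, rose by 3.54 (SE 0.36, adjusted p = 1.65e-14). In these bulk samples, fewer cells of a type and less RNA per cell cannot be told apart.

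Sftpc, the surfactant protein by which type 2 cells are most often recognised, lay from 13.68 to 14.09 (median 13.92) in the adenomas, at 13.21, 12.01 and 12.72 in the positive samples and from 11.63 to 13.58 (median 12.86) in the negative samples. All 14 adenomas were above all 10 sorted samples, yet the difference of 1.17 (SE 0.61, adjusted p = 0.115) did not pass the test over all 117 arrays. In a fit on the 24 lung arrays alone the same difference had an adjusted p of 8.88e-06. Sftpc, which healthy mice make in the lung, was thus at 11.63 or above on all 24 arrays, as their labels would have it. Its adenoma values lie near the highest value on any array, 14.2. Lyz1, a lysozyme shared with macrophages, was the other marker not called, at 0.21 (adjusted p = 0.361).

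Muc1, Chil1 and Egfl6 had the largest differences among the type 2 markers. Muc1, a mucin of the apical membrane, lay from 9.84 to 11.73 (median 11.33) in the adenomas, at 6.39, 4.88 and 6.70 in the positive samples and from 5.26 to 7.38 (median 6.09) in the negative samples. The groups did not overlap, and the difference was 5.13 (SE 0.55, adjusted p = 1.23e-13). Chil1, a secreted chitinase-like protein, rose by 5.50 (SE 0.47, adjusted p = 1.36e-18). Egfl6, a secreted EGF-repeat protein, lay from 7.27 to 10.71 (median 9.89) in the adenomas, at 5.21, 2.78 and 2.87 in the positive samples and from 2.71 to 6.34 (median 3.83) in the negative samples, with every adenoma above every sorted sample (5.64, SE 0.39, adjusted p = 3.03e-24).

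**Figure D2:**
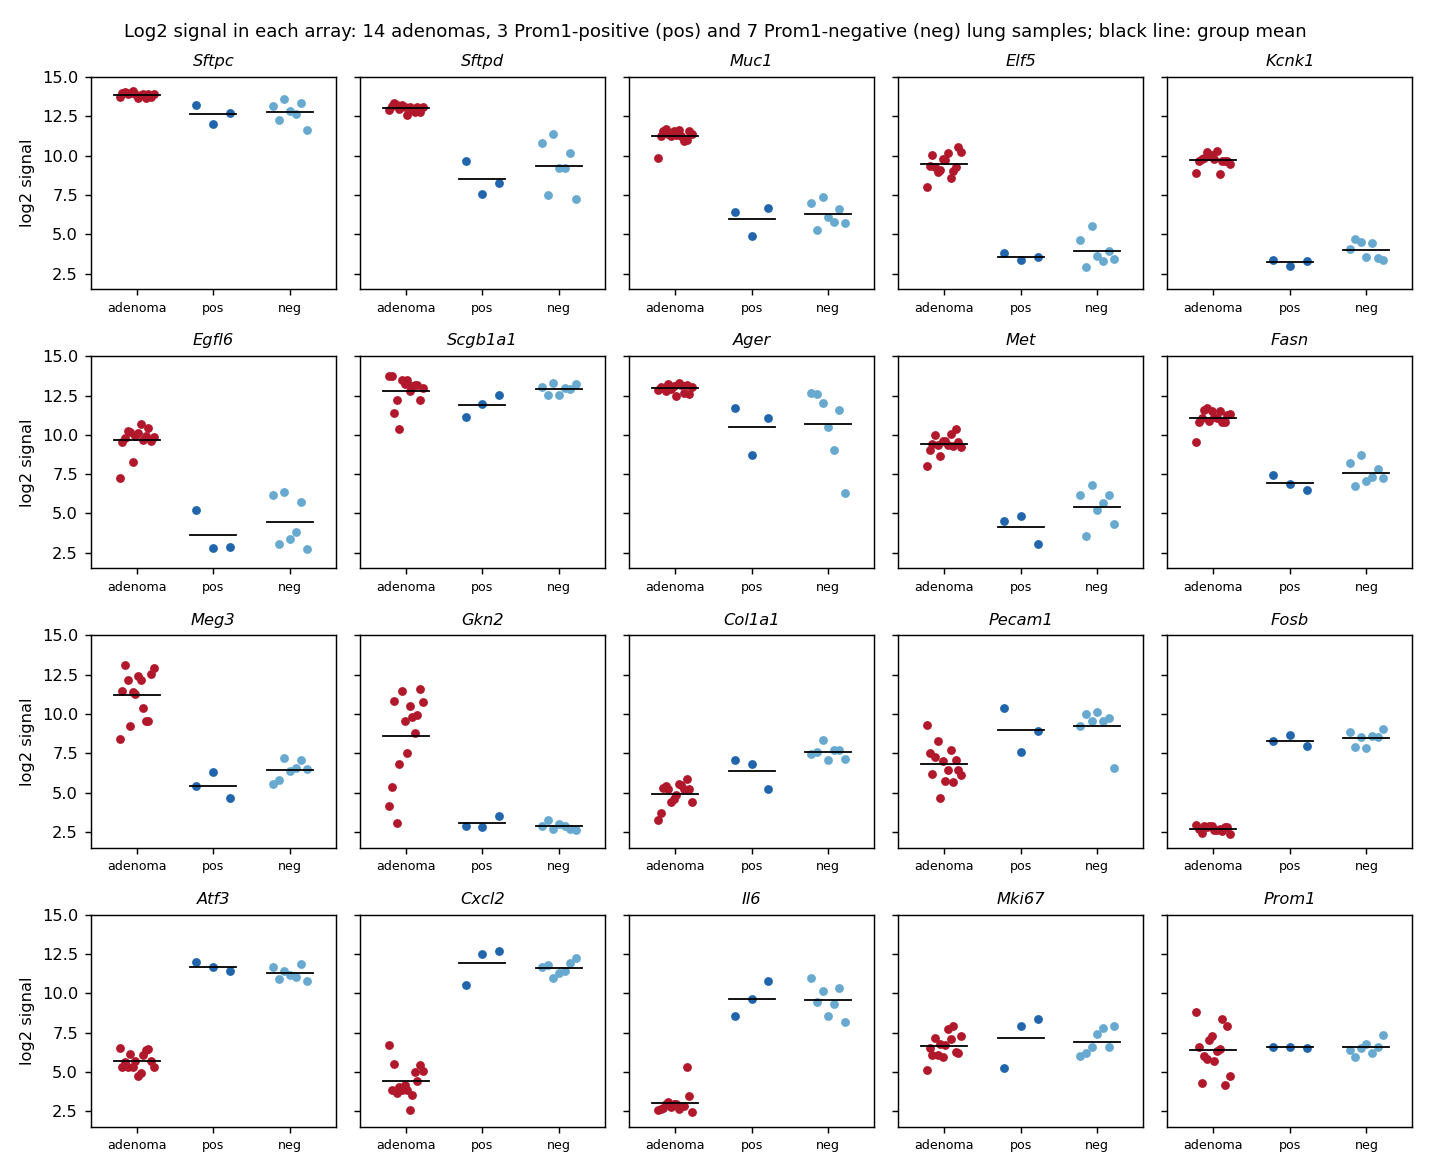
Log2 level of 20 genes in each of the 24 lung arrays, one point per array, by group. Sftpd, Muc1, Kcnk1 and Met are higher in every adenoma than in any sorted sample, and Fosb, Atf3, Cxcl2 and Il6 are lower in every adenoma.

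Genes common to epithelia rose almost without exception. Of 19 tested, 18 rose, with a median of 3.78, and 17 did not overlap. The list's mean level lay between 8.50 and 9.69 in the adenomas, between 5.30 and 5.41 in the positive and between 5.24 and 6.63 in the negative samples. Epcam, the adhesion molecule by which epithelial cells are usually sorted, lay from 9.55 to 11.38 (median 10.53) in the adenomas, at 7.21, 9.01 and 7.89 in the positive samples and from 7.94 to 8.94 (median 8.25) in the negative samples, and it rose by 2.30 (SE 0.43, adjusted p = 4.27e-06). Cdh1 (E-cadherin) rose by 3.32, the keratins Krt8 and Krt18 by 3.38 and 3.95, and the tight-junction claudins Cldn3 and Cldn7 by 4.70 and 4.21. Esrp1, a splicing factor of epithelia, rose by 4.36, and Prss8, a membrane protease that activates the epithelial sodium channel, by 5.15. Krt19 was the member not called, at 0.83 (adjusted p = 0.224). Where type 2 genes rose, epithelial genes in general rose too, and how much of the type 2 difference goes with a larger epithelial share was not tested.

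Transcription factors of lung and endoderm were mostly higher: 14 of 19 rose, with a median of 2.64. Elf5, an ETS factor of epithelial progenitors, lay from 7.99 to 10.54 (median 9.34) in the adenomas, at 3.80, 3.37 and 3.56 in the positive samples and from 2.94 to 5.55 (median 3.60) in the negative samples. It was low in the sorted cells and clear of them in every adenoma (5.69, SE 0.29, adjusted p = 8.51e-33). Foxa1 and Foxa2, forkhead factors of endoderm, rose by 3.56 and 3.53. Grhl2, which maintains epithelial junctions, rose by 3.12, and Tfcp2l1, a related grainyhead-like factor, by 4.83. Irx3 rose by 4.28 and Cebpa, needed for type 2 cell maturation, by 2.49. Tbx4, a factor of lung mesenchyme, was the one that fell, by 1.07 (SE 0.28, adjusted p = 8.06e-04). Nkx2-1, the master factor of lung epithelium, rose by only 0.79 (SE 0.14, adjusted p = 2.60e-06), but its probe set was dim, at 2.97 to 4.85 in the adenomas, close to the medians of the lung arrays (3.67 to 3.81). Hnf4a (1.40, adjusted p = 0.0561), Sox2 (1.13, adjusted p = 0.0945), Hmga2 (0.20, adjusted p = 0.734) and Id2 (-0.15, adjusted p = 0.590) did not pass the test.

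Markers of type 1 cells rose less uniformly: 8 of 13 rose, none fell, and the median was 1.58. Ager, the receptor RAGE of the type 1 cell membrane, lay from 12.49 to 13.28 (median 12.996) in the adenomas, at 11.70, 8.69 and 11.09 in the positive samples and from 6.28 to 12.65 (median 11.61) in the negative samples. The adenomas spanned less than 1 unit, while the sorted samples ranged widely, and negative samples 1 and 2 reached the adenomas. The difference was 2.37 (SE 0.49, adjusted p = 3.09e-05), and 2.28 (adjusted p = 1.72e-04) against the negative samples alone. Aqp5, a water channel of type 1 cells that airway glands also make, rose by 4.57 (SE 0.49, adjusted p = 1.53e-13) with no overlap. Krt7 rose by 3.79, Cldn18 by 3.38 and Pdpn by 1.85. Krt7 and Cldn18 are also made by type 2 cells. Hopx, a cofactor of type 1 cells, was not called (0.40, adjusted p = 0.426), nor were Clic5 (0.63, adjusted p = 0.268) and Vegfa (0.23, adjusted p = 0.666). Against the negative samples alone 6 rose. Without negative sample 7, which had the lowest type 1 list, 8 rose against both sorted groups.

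Airway markers did not follow. Of 14 club cell genes, 3 rose and 3 fell, with a median of 0.36. Scgb1a1, the main secretory protein of club cells, lay from 10.35 to 13.78 (median 13.13) in the adenomas, at 11.14, 11.95 and 12.53 in the positive samples and from 12.56 to 13.33 (median 12.98) in the negative samples. The groups overlapped, and the difference of 0.38 (SE 0.55, adjusted p = 0.626) did not pass. Scgb3a1, another secretoglobin, fell by 1.2 (SE 0.43, adjusted p = 0.0161). The members that rose were the aldehyde oxidase Aox3 (4.35), the aldehyde dehydrogenase Aldh1a7 (4.01) and the cholecystokinin receptor Cckar (1.17). Bpifa1, an antimicrobial protein of the upper airways, lay from 2.63 to 13.13 (median 5.73) in the adenomas, at 5.82, 9.65 and 8.63 in the positive samples and from 3.49 to 12.01 (median 10.75) in the negative samples, and it fell by 2.58 (SE 0.61, adjusted p = 2.59e-04). Without adenoma 1, 4 club cell genes fell. Adenoma 1 held the highest Bpifa1 value of all 24 arrays. In a fit on the lung arrays alone the fall in Bpifa1 had an adjusted p of 0.0939.

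Of 9 ciliated cell genes, 3 fell and none rose. Foxj1, the master factor of motile cilia, lay from 2.78 to 6.65 (median 3.19) in the adenomas, at 3.18, 3.48 and 3.26 in the positive samples and from 3.33 to 4.38 (median 3.79) in the negative samples. Apart from adenoma 1, no adenoma exceeded 4.26, and Foxj1 was not among the genes called. Tppp3 fell by 2.04 (SE 0.45, adjusted p = 7.02e-05) with no overlap. Without adenoma 1, 4 ciliated cell genes fell, and 5 did without adenomas 1 and 6 and negative sample 7. No gene of the basal and goblet cell list (11 tested) or of the neuroendocrine list (6 tested) was called. Muc5b, a mucin of airway glands, was at 1.44 (adjusted p = 0.0517), and Trp63, a basal cell factor, at -0.29 (adjusted p = 0.564). Without adenoma 1, the goblet cell factor Foxa3 rose by 1.0 (limma, adjusted p = 0.0363).

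**Figure D3:**
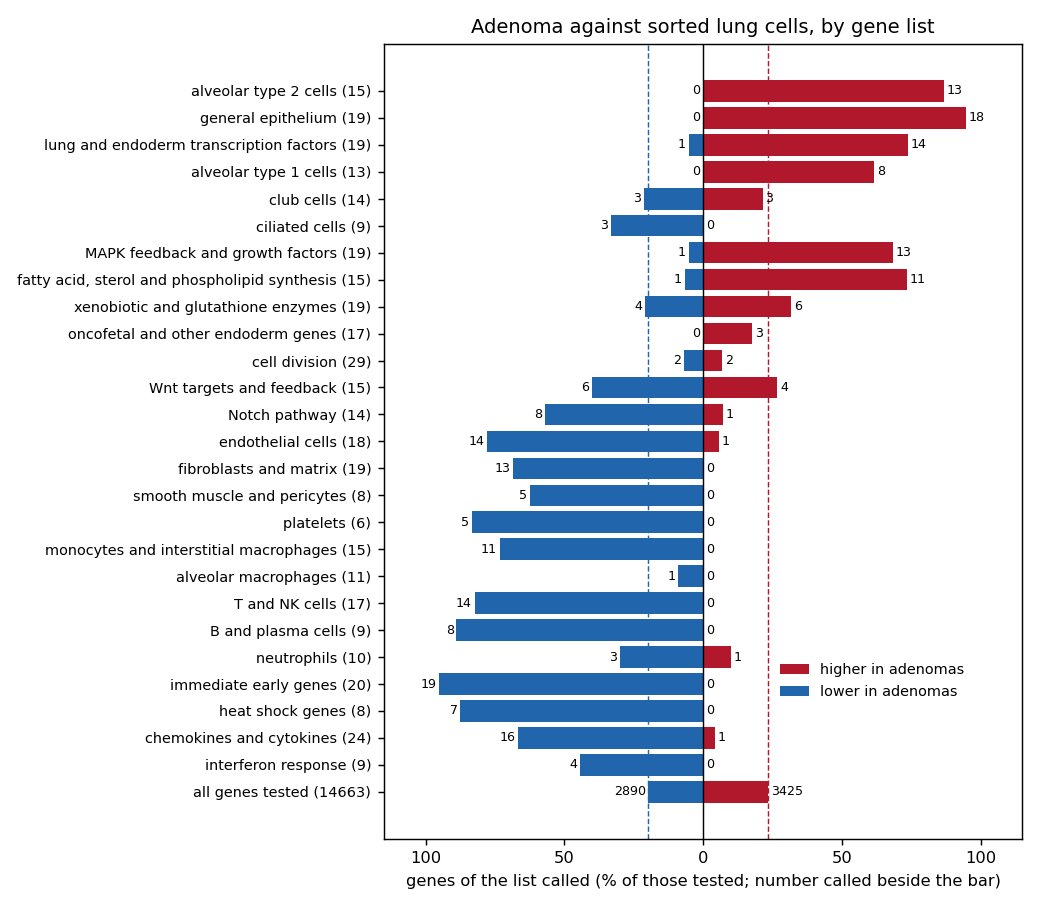
Share of each list's tested genes that were called higher (right) or lower (left) in adenomas than in sorted lung cells, in percent. Dashed lines mark the shares over all genes, 23.4% higher and 19.7% lower. General epithelium, type 2 cells and transcription factors extend furthest to the right, and immediate early genes furthest to the left.

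Receptors and feedback regulators of the RAS-MAPK route, through which growth factors drive epithelial growth, were mostly higher: 13 of 19 rose and 1 fell, with a median of 1.62. Without negative sample 7, and likewise without positive sample 4, 11 rose and 1 fell. Met, the receptor for hepatocyte growth factor, lay from 8.05 to 10.39 (median 9.41) in the adenomas, at 4.52, 4.86 and 3.03 in the positive samples and from 3.54 to 6.84 (median 5.65) in the negative samples. No adenoma overlapped a sorted sample (4.63, SE 0.38, adjusted p = 3.37e-19). Erbb3, a partner receptor of the EGF receptor family, lay from 8.95 to 10.48 (median 9.79) in the adenomas, at 5.46, 5.40 and 4.39 in the positive samples and from 4.65 to 6.6 (median 5.80) in the negative samples, likewise without overlap (4.45, SE 0.42, adjusted p = 1.97e-16). Fgfr2, through which FGF signals shape lung epithelium, rose by 3.91 (SE 0.42, adjusted p = 6.66e-14), and Erbb2 by 1.99. Egfr itself fell, by 1.62 (SE 0.38, adjusted p = 2.69e-04).

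Among ligands, Ereg (epiregulin) lay from 3.60 to 9.67 (median 7.50) in the adenomas, at 3.32, 3.20 and 3.55 in the positive samples and from 3.70 to 6.74 (median 4.39) in the negative samples. In 10 adenomas it was above every sorted sample, and the difference was 3.30 (SE 0.50, adjusted p = 2.29e-08). Tgfa, another EGF receptor ligand, rose by 2.23, while Hbegf (-0.37, adjusted p = 0.539) and Nrg1 (0.01, adjusted p = 0.972) were not called. Of the inhibitors that MAPK activity induces, Spry2 rose by 2.19, Spry1 by 1.62, Spred1 by 1.56 and the ERK phosphatases Dusp4 and Dusp6 by 1.96 and 0.81. The call of Dusp6 was lost under 14 of 40 alternatives, 10 of which left out 1 sample (adjusted p up to 0.152). That of Spred2, also counted among the rises, was lost under 22 (limma, adjusted p up to 0.182). Spry4 was not called (0.35, adjusted p = 0.444). The ETS factor Etv4 rose by 1.64 and Etv1 was at 0.71 (adjusted p = 0.172).

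Genes of lipid synthesis, which supplies both membranes and surfactant, were also mostly higher: 11 of 15 genes rose, with a median of 1.69. Fasn, the fatty acid synthase, lay from 9.57 to 11.70 (median 11.10) in the adenomas, at 7.46, 6.88 and 6.50 in the positive samples and from 6.72 to 8.71 (median 7.34) in the negative samples, and it rose by 3.81 (SE 0.32, adjusted p = 2.83e-19) with no overlap. Scd1, which desaturates fatty acids, lay from 11.95 to 13.48 (median 13.13) in the adenomas, at 10.15, 8.99 and 9.80 in the positive samples and from 10.12 to 11.55 (median 10.95) in the negative samples, also without overlap (2.77, SE 0.38, adjusted p = 1.04e-09). Acaca, the acetyl-CoA carboxylase that commits carbon to fatty acids, rose by 1.84, and Acly, which supplies the acetyl-CoA, by 1.08. Elovl6, a fatty acid elongase, fell by 1.47 (SE 0.45, adjusted p = 0.00473). Of the sterol genes, Fdft1 (1.69) and Lss (1.55) rose, while Hmgcs1 (-0.02, adjusted p = 0.968) and Sqle (0.81, adjusted p = 0.109) were not called.

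The largest rise among genes without overlap was in Kcnk1, a 2-pore potassium channel. It lay from 8.86 to 10.33 (median 9.73) in the adenomas, at 3.33, 2.97 and 3.33 in the positive samples and from 3.33 to 4.68 (median 4.03) in the negative samples. The lowest adenoma was clear of the highest sorted sample (6.10, SE 0.48, adjusted p = 2.88e-20). Lcn2, the siderophore-binding protein lipocalin 2 of inflamed epithelia and neutrophils, lay from 11.48 to 12.85 (median 12.26) in the adenomas, at 5.85, 3.82 and 6.03 in the positive samples and from 6.09 to 9.89 (median 7.82) in the negative samples, and it rose by 5.67 (SE 0.44, adjusted p = 7.98e-21). It is the one member of the neutrophil list that rose, and 3 of 10 fell. The others of the 15 largest rises were the membrane protein Mal (5.64), Tc2n (5.57), the proton pump subunit Atp6v1c2 (5.30), the mitochondrial creatine kinase Ckmt1 (5.22), the laminin chain Lamb3 (5.19), the GTPase activator Rap1gap (4.95) and the serine protease Tmprss4 (4.86), beside the epithelial and type 2 genes Elf5, Egfl6, Chil1, Prss8 and Muc1.

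Meg3, an imprinted noncoding RNA, was among them too. It lay from 8.41 to 13.11 (median 11.44) in the adenomas, at 5.42, 6.30 and 4.63 in the positive samples and from 5.57 to 7.20 (median 6.50) in the negative samples, and it rose by 5.23 (SE 0.80, adjusted p = 2.87e-08) with no overlap. Dlk1, the protein-coding gene of the same imprinted cluster, varied between adenomas. It lay from 3.34 to 9.59 (median 5.59) in the adenomas, at 3.31, 3.60 and 4.10 in the positive samples and from 2.59 to 3.54 (median 3.41) in the negative samples, so that some adenomas were at the level of the sorted samples and others far above (2.21, SE 0.44, adjusted p = 1.33e-05). Of the oncofetal and other endoderm genes, 3 of 17 rose: Dlk1, Afp (alpha-fetoprotein, 2.12) and Gkn2.

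Immediate early genes, which cells switch on within minutes of a stimulus, were lower in the adenomas. Of 20 tested, 19 fell and none rose, with a median of -2.46, and 12 did not overlap. Fos, a subunit of the AP-1 factor, lay from 7.41 to 9.20 (median 8.15) in the adenomas, at 12.04, 11.92 and 11.58 in the positive samples and from 11.50 to 12.28 (median 12.14) in the negative samples, and it fell by 3.77 (SE 0.32, adjusted p = 5.07e-19). Fosb, a further subunit, lay from 2.35 to 2.93 (median 2.76) in the adenomas, at 8.32, 8.64 and 7.97 in the positive samples and from 7.84 to 9.08 (median 8.55) in the negative samples. Every adenoma was below every sorted sample (fell by 5.68, SE 0.31, adjusted p = 3.81e-30). Atf3, a factor induced by stress, lay from 4.75 to 6.52 (median 5.67) in the adenomas, at 12.01, 11.65 and 11.41 in the positive samples and from 10.79 to 11.85 (median 11.19) in the negative samples, and it fell by 5.80 (SE 0.37, adjusted p = 3.13e-26), also without overlap. Nr4a3 fell by 5.63, Nr4a1 by 3.88, Socs3, an inhibitor of cytokine receptors, by 3.62, and Egr1 by 3.13. Egr3 was not called (0.02, adjusted p = 0.871). In tumours of prostate, liver, stomach and uterus against sorted cells of those organs, handled in the same ways, the median of the list was -1.79.

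Heat shock genes, which encode chaperones, moved in the same direction: 7 of 8 fell, with a median of -1.54, against -0.43 in the other organs. Hspa1b, the inducible HSP70, fell by 3.06 (SE 0.40, adjusted p = 3.06e-10) with no overlap. Hspb1 lay from 7.62 to 11.21 (median 9.90) in the adenomas, at 12.75, 11.17 and 12.23 in the positive samples and from 8.53 to 12.63 (median 12.09) in the negative samples, and it fell by 2.13 (SE 0.35, adjusted p = 2.58e-07). The lowest sorted value, that of negative sample 7, lay among the adenomas, and positive sample 2 lay just below the highest adenoma. Hspe1 was not called (-0.0014, adjusted p = 0.996).

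Chemokines and cytokines held the largest falls. Of 24 tested, 16 fell and 1 rose, with a median of -1.77. Of the 15 largest falls without overlap, Cxcl2, Cxcl1, Ccl2, Ccl3, Ccl4 and Ccl7 encode chemokines, Il6 a cytokine, and Rel and Nfkbid a subunit and a regulator of the NF-kB factors that switch such genes on. Windows of 250 bases before the start site were searched for an NF-kB-type motif (GGG, any 2 bases, then TTTCC, on either strand). Of the 15 largest falls, 11 genes have a window in RefSeq's set, and 4 of them hold the motif. These 4 are shown because they hold it, and windows without it are not shown. Capitals mark the motif, the build is GRCm38.p6, each sequence reads 5′ to 3′ on the gene's strand, and the last base is the one before the start.
Cxcl2 (chr5:90903649-90903898, + strand): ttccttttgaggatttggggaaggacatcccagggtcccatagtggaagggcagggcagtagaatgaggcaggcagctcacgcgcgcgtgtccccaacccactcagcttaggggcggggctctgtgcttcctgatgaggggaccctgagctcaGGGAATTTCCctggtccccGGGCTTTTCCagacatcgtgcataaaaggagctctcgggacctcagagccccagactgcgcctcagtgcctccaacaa
Il6 (chr5:30012864-30013113, + strand): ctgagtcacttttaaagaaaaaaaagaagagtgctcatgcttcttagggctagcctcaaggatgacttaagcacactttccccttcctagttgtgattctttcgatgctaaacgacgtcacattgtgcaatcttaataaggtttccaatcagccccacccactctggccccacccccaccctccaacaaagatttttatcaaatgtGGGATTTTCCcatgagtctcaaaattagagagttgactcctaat
Cxcl1 (chr5:90890995-90891244, + strand): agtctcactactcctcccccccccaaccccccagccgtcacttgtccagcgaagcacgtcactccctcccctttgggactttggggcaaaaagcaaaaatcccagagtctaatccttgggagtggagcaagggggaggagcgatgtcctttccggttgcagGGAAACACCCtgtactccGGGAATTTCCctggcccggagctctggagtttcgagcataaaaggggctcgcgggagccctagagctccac
Rel (chr11:23770970-23771219, - strand): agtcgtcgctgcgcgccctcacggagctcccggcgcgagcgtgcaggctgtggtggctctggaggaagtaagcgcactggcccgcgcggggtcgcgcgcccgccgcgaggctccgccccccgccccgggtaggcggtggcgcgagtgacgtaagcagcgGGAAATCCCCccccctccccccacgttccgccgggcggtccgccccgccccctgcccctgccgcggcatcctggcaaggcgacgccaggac
Cxcl2 and Cxcl1 each hold the motif at 2 places. Counted by window, 1.41% of all 32851 in RefSeq's set hold it. So do 26.7% of the 15 windows of the largest falls and 8.33% of the 24 windows of the largest rises. Counted by gene, 447 of 27025 hold it, and of the 13 genes with a window among the 15 largest rises 1 does, Rap1gap. The motif was chosen after these windows had been seen, and a match is a description of the letters, not of binding.

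Cxcl2, which draws in neutrophils, lay from 2.57 to 6.74 (median 4.11) in the adenomas, at 10.55, 12.51 and 12.67 in the positive samples and from 10.98 to 12.24 (median 11.70) in the negative samples. Its fall of 7.36 (SE 0.64, adjusted p = 3.20e-18) was the largest among genes without overlap. Il6, a cytokine of the acute response, lay from 2.46 to 5.31 (median 2.83) in the adenomas, at 8.57, 9.62 and 10.77 in the positive samples and from 8.15 to 10.99 (median 9.42) in the negative samples, with no adenoma near a sorted sample (fell by 6.6, SE 0.41, adjusted p = 3.54e-27). Cxcl1 fell by 4.96, Ccl4 by 5.49, Ccl2 by 5.06, Ccl3 by 4.97, Tnf by 3.92, Rel by 4.59 and Nfkbid by 4.43. Csf2 (GM-CSF), on which alveolar macrophages depend, was the member that rose, by 1.67 (SE 0.37, adjusted p = 1.07e-04). Ccl20 (0.86, adjusted p = 0.167) and Cxcl5 (0.52, adjusted p = 0.522), both chemokines of epithelia, were not called. Tumour pieces were frozen at once and sorted cells were not, and for these lists, too, handling and tumour state cannot be told apart.

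Markers of stromal and vessel cells were lower. Of 18 endothelial genes, 14 fell and 1 rose, with a median of -1.88. Pecam1 (CD31) lay from 4.68 to 9.29 (median 6.74) in the adenomas, at 10.41, 7.61 and 8.91 in the positive samples and from 6.54 to 10.12 (median 9.57) in the negative samples. Apart from negative sample 7, no sorted sample was below 9.21 among the negative ones, and the difference was -2.29 (SE 0.40, adjusted p = 7.91e-07). Cldn5, the tight-junction claudin of vessels, fell by 3.15, and the angiopoietin receptor Tek by 3.07. Ramp2, a receptor component that epithelium also makes, rose by 1.74 (SE 0.71, adjusted p = 0.0401), a call lost under 17 of 40 alternatives, among them those without adenoma 1 and without adenomas 1 and 6 and negative sample 7.

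Of 19 fibroblast and matrix genes, 13 fell and none rose, with a median of -2.08. Col3a1, a fibrillar collagen, lay from 5.59 to 10.47 (median 9.73) in the adenomas, at 11.81, 11.25 and 10.24 in the positive samples and from 11.46 to 12.44 (median 11.90) in the negative samples, and it fell by 2.17 (SE 0.45, adjusted p = 3.61e-05). Col1a1 lay from 3.24 to 5.85 (median 5.23) in the adenomas, at 7.08, 6.79 and 5.21 in the positive samples and from 7.04 to 8.35 (median 7.60) in the negative samples, with every adenoma below every sorted sample but positive sample 4 (fell by 2.08, SE 0.46, adjusted p = 8.26e-05). Tcf21, a factor of lung fibroblasts, fell by 3.35, and Pdgfra by 2.46. Sparc (-0.21, adjusted p = 0.685), Eln (-0.11, adjusted p = 0.851) and Col1a2 (-0.53, adjusted p = 0.134) were not called. Of the smooth muscle and pericyte genes 5 of 8 fell, and 7 did without adenomas 1 and 6 and negative sample 7. Without positive sample 4, 4 fell and 1 rose. Against the positive samples alone 1 fell, and against the negative samples alone 5. In the cardiac muscle list, which marks the muscle sleeves of lung veins or adhering heart, 4 of 7 fell, and 6 did without adenoma 1.

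Markers of blood-borne cells were lower or not called. Of 15 genes of monocytes and interstitial macrophages, 11 fell, with a median of -1.56. C1qa, a complement subunit made by macrophages, lay from 7.0 to 9.14 (median 8.17) in the adenomas, at 10.24, 12.12 and 11.24 in the positive samples and from 6.33 to 9.21 (median 8.68) in the negative samples. The positive samples were above every adenoma, the negative samples overlapped them, and the difference was -1.56 (SE 0.43, adjusted p = 0.00193). Against the positive samples alone 12 fell and against the negative samples alone 5. Alveolar macrophage genes differed less: 1 of 11 fell (Krt79, by 2.63). Chil3, a secreted protein of alveolar macrophages, lay from 12.38 to 13.32 (median 12.95) in the adenomas, at 12.30, 12.95 and 12.59 in the positive samples and from 12.23 to 13.17 (median 12.67) in the negative samples, and its difference of 0.24 (adjusted p = 0.827) did not pass.

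Lymphocyte genes were low in the adenomas. Of 17 T and NK cell genes, 14 fell, with a median of -1.28. The list's mean level lay between 3.68 and 4.91 in the adenomas, 4.30 and 4.76 in the positive and 5.96 and 8.22 in the negative samples. Cd3g, part of the CD3 signalling unit of T cells, lay from 3.26 to 6.12 (median 3.92) in the adenomas, at 4.63, 3.11 and 2.97 in the positive samples and from 5.77 to 9.13 (median 7.50) in the negative samples (-1.28, SE 0.35, adjusted p = 0.00162). Against the positive samples alone 2 fell and 1 rose, and against the negative samples alone 15 fell. Of 9 B and plasma cell genes, 8 fell, and 6 did without negative sample 7. Against the positive samples alone 1 of these fell and 1 rose, and against the negative samples alone 7 fell. Ptprc (CD45), carried by all white blood cells, fell by 1.22 (SE 0.40, adjusted p = 0.00862), a call lost without positive sample 2 (adjusted p = 0.0588). Platelet genes fell in 5 of 6, and no erythroid gene of 5 was called.

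The MHC class II genes, which present antigen and are made by type 2 cells as well as immune cells, split. The presenting chains were not called: H2-Aa was at 0.08 (adjusted p = 0.908), H2-Ab1 at -0.57 (adjusted p = 0.317), H2-Eb1 at -0.09 (adjusted p = 0.923) and the invariant chain Cd74 at 0.03 (adjusted p = 0.962). H2-Ob and H2-Oa, which together form H2-O, a modulator of peptide loading best known in B cells, fell. H2-Ob lay from 2.50 to 5.87 (median 3.18) in the adenomas, at 6.33, 7.76 and 8.09 in the positive samples and from 7.25 to 9.47 (median 7.84) in the negative samples, with every adenoma below every sorted sample (fell by 4.0, SE 0.35, adjusted p = 5.36e-18), and H2-Oa fell by 2.04 (SE 0.31, adjusted p = 4.10e-08). Ciita, the master activator of the class, rose by 0.93 (SE 0.31, adjusted p = 0.0108).

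Few cell division genes were called. Of 29 tested, 2 rose and 2 fell, with a median of 0.26. Mki67, a marker of dividing cells, lay from 5.13 to 7.94 (median 6.59) in the adenomas, at 5.26, 7.90 and 8.33 in the positive samples and from 5.98 to 7.94 (median 6.56) in the negative samples. The ranges overlapped and the difference was -0.41 (adjusted p = 0.415), with a 95% interval from -1.17 to 0.34. Bub1b and Bub1, kinases of the spindle checkpoint, rose by 1.12 (SE 0.30, adjusted p = 0.00142) and 0.94 (SE 0.39, adjusted p = 0.0415). The call of Bub1 was lost under 18 of 40 alternatives, 11 of which left out 1 sample (adjusted p up to 0.131). Pcna, the sliding clamp of DNA polymerase, fell by 0.85 (SE 0.18, adjusted p = 4.58e-05), and Cks2 by 1.23. Without adenomas 1 and 6 and negative sample 7, 6 rose and 2 fell.

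Wnt targets and feedback genes moved both ways, with 4 of 15 higher and 6 lower. Ccnd1 (cyclin D1), which many growth signals induce, lay from 7.89 to 11.64 (median 10.81) in the adenomas, at 10.11, 9.50 and 9.95 in the positive samples and from 6.39 to 9.75 (median 9.30) in the negative samples, and it rose by 1.32 (SE 0.33, adjusted p = 6.61e-04). Rnf43, a ligase that removes Wnt receptors, rose by 1.96, whereas Axin2, a general Wnt target, fell by 0.99 and the secreted antagonist Wif1 by 2.01. Of the Notch pathway genes, 8 of 14 fell. Notch3, a receptor found in vessel-wall and airway cells, lay from 5.06 to 6.76 (median 6.14) in the adenomas, at 8.86, 6.36 and 6.90 in the positive samples and from 4.87 to 8.20 (median 7.93) in the negative samples, and it fell by 1.30 (SE 0.29, adjusted p = 1.13e-04). Notch4 and Dll4, a receptor and a ligand of endothelial cells, fell by 2.01 and 1.66, beside the fall of the endothelial list, and the ligand Jag1 rose by 1.08. Of the driver and brake genes tested, 2 of 15 rose (Braf by 0.50 and Ctnnb1 by 0.42) and 4 fell, among them the cell-cycle inhibitor Cdkn1a, by 1.43 (SE 0.33, adjusted p = 1.70e-04).

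Prom1 itself, which defined the sort, lay from 4.16 to 8.80 (median 6.39) in the adenomas, at 6.55, 6.57 and 6.55 in the positive samples and from 5.92 to 7.37 (median 6.53) in the negative samples. The positive samples lay within the range of the negative samples, and the adenomas spread to both sides of it. The difference was -0.16 (adjusted p = 0.898), with a 95% interval from -1.61 to 1.29.

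The adenomas differed from each other most in 10 genes. Xist, the noncoding RNA of the inactive X chromosome, had the largest SD, 3.76. It lay between 10.89 and 11.44 in adenomas 2, 4, 5, 7, 8 and 11 and between 3.09 and 4.62 in the other 8. Among the sorted samples, negative sample 7 was at 11.19 and the other 9 lay between 3.14 and 4.17. Eif2s3y, a gene of the Y chromosome, was at 7.23 or above in those 9 samples and at 2.22 in negative sample 7. In the adenomas with high Xist it lay under 3, and in adenomas 3 and 13 it had middle values of 6.13 and 4.66. Over the groups, Xist differed by 2.93 (SE 1.14, adjusted p = 0.0295) and Eif2s3y by -2.12 (SE 0.88, adjusted p = 0.0414). The labels used here give no sex, and the part of these differences in other genes was not tested.

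Gkn2, gastrokine 2, a secreted protein of stomach mucosa, lay from 3.09 to 11.58 (median 9.70) in the adenomas, at 2.86, 2.80 and 3.50 in the positive samples and from 2.63 to 3.27 (median 2.87) in the negative samples. In 13 of the adenomas it was above every sorted sample, adenoma 4 being at 3.09 (SD 2.77, difference 5.62, SE 0.85, adjusted p = 1.90e-08). Fbp2, the muscle form of fructose bisphosphatase, was above 8 in 8 adenomas and at 5.47 or lower in the other 6. It did not exceed 4.08 in the sorted samples (SD 3.03). Kng1, the kininogen from which bradykinin is cut, was above 8 in 7 adenomas and Ceacam10 in 4, and in no sorted sample. The granzyme gene Gzme was above 8 in 3 adenomas, with 11.51 in the highest. Ngp, a granule protein of neutrophils, ran from 2.67 to 10.77. Bpifa1 and Ang5, a ribonuclease of the angiogenin family, were each above 8 in 3 adenomas and 7 sorted samples.

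**Figure D4:**
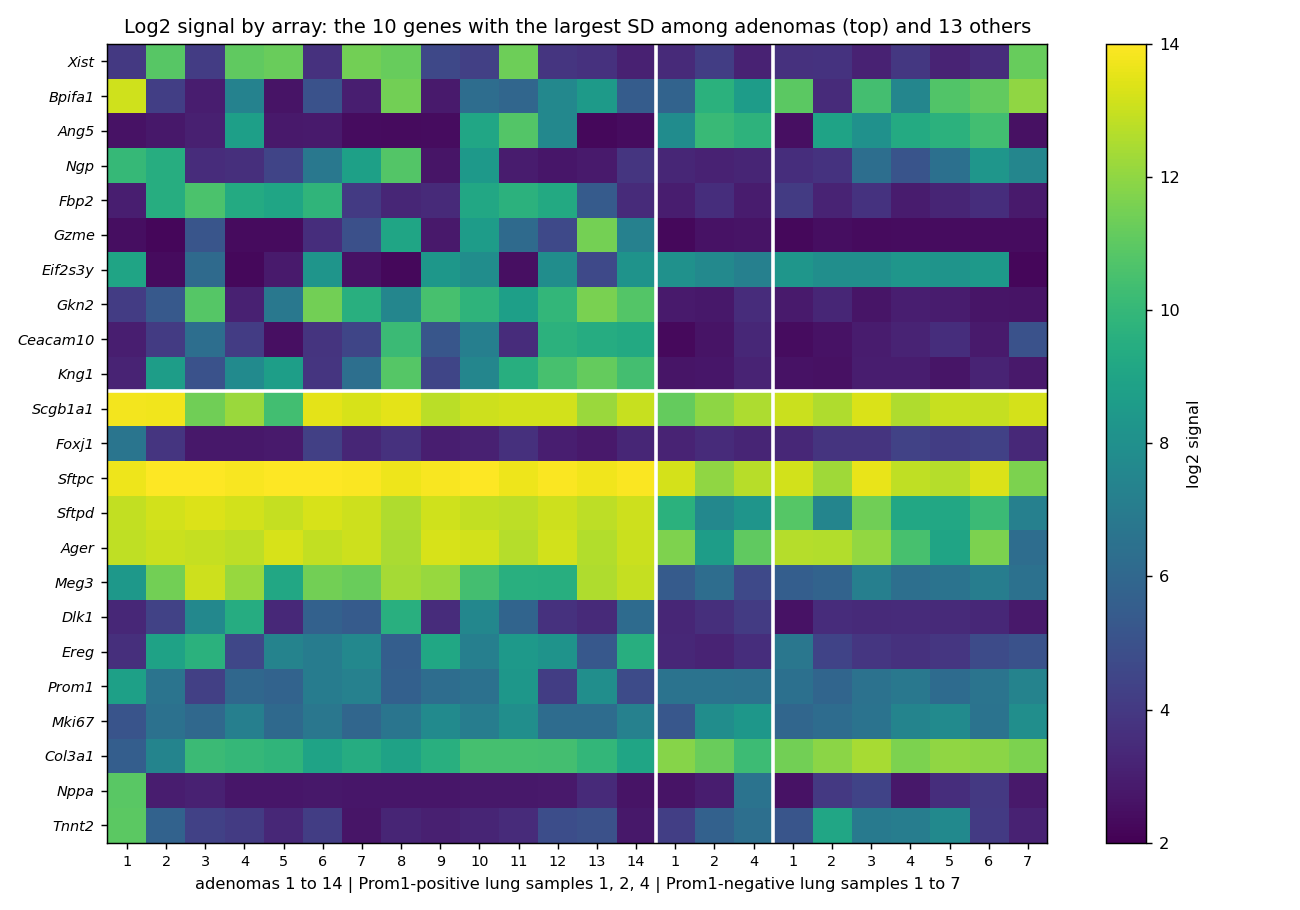
Log2 levels (colour) of the 10 genes that vary most among adenomas and of 13 further genes, in columns for the 14 adenomas and the 10 sorted samples. Xist is at 10.89 or more in 6 adenomas and in negative sample 7, Gkn2 is above 8 in 9 adenomas, and Nppa is high in adenoma 1 (10.92).

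Of 6 pairs of genes correlated over the 14 adenomas, none passed by Pearson's r after Benjamini-Hochberg adjustment. The highest r was that of Sftpc with Ager, 0.66 (permutation p = 0.0122, adjusted 0.0731), with Spearman's rho 0.49 (permutation p = 0.0797, adjusted 0.239). It was 0.38 without adenomas 8 and 11, the farthest from the median of Sftpc. Scgb1a1 with Foxj1 had an r of 0.57 (permutation p = 0.064, adjusted 0.192) and a rho of 0.94, whose permutation p of 1e-05 is the smallest that 1e+05 permutations can give (adjusted 6e-05). Its r was 0.69 without adenomas 3 and 5 and 0.71 without adenoma 1. Foxj1 lay near the medians of the arrays in every adenoma but the first, so this order rests on small differences. Sftpc with Scgb1a1 (r = -0.30, permutation p = 0.297), with Mki67 (r = -0.051, permutation p = 0.864) and with Ptprc (r = -0.16, permutation p = 0.59), and Mki67 with Prom1 (r = -0.082, permutation p = 0.777), had adjusted p-values of 0.594 or more.

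To see where lung differs, the lung difference was set against the mean of the tumour differences in prostate, liver, stomach and uterus (43 tumours against 33 sorted samples). Some of these sorted samples were of poorer quality than the lung samples. In 1 Prom1-negative stomach sample the upper quartile was 5.05, the Actb ratio 1.85 and the correlation with its group 0.718. The Prom1-positive liver samples had Actb ratios from 1.37 to 1.78. In Prom1-negative uterus samples 1, 2 and 3 the ratios were 1.87, 2.41 and 0.34. By the interaction term in limma, 2514 genes (17.1%) were higher in lung than in the mean of the other organs and 3250 (22.2%) lower, 5764 (39.3%) in all. With the upper quartile of each array as a covariate the split became 3243 higher and 2786 lower. With the Actb ratio as a covariate it was 2421 higher and 2857 lower. The type 2 list was higher in 13 of 15. In general epithelium 18 of 19 were higher, with a median of 2.61, where the other organs had a median of 0.70. Kcnk1 rose in lung and not in the mean of the others (-0.29), an interaction of 6.39 (SE 0.55, adjusted p = 8.01e-18). Atp6v1c2 (6.64), Ckmt1 (6.28), Egfl6 (5.93), Arfgef3 (5.73) and Tmem213 (5.71) were likewise higher in lung. So were Met (3.58), Erbb3 (4.06), Fgfr2 (4.25) and Fasn (3.35).

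Stroma differed the other way. Fibroblast and matrix genes were lower in lung in 16 of 19, where the other organs had a median of 0.88, and Col3a1 differed by -4.33 (SE 0.52, adjusted p = 1.78e-11). Cell division genes were lower in lung in 13 of 29 and higher in none, against a median of 1.19 in the other organs, and Mki67 differed by -1.51 (SE 0.43, adjusted p = 0.00308). Of the chemokines and cytokines 19 of 24 were lower in lung, with an interaction of -5.17 (SE 0.73, adjusted p = 3.95e-09) for Cxcl2 and -4.21 (SE 0.46, adjusted p = 6.68e-13) for Il6. Of the immediate early genes 9 of 20 were lower and 1 was higher. Among genes also called lower in the adenomas without overlap, clone-named and predicted genes aside, the 10 lowest interactions were those of Cxcl2, Il6, Pmaip1 (-5.07), a BH3-only protein of cell death, Fndc1 (-4.68), the matrix protease Mmp2 (-4.59), the elastin cross-linking enzyme Loxl1 (-4.43), the collagen Col5a1 (-4.29), the cyclooxygenase Ptgs2 (-4.29), the lipid droplet protein Hilpda (-4.20) and the tubulin Tubb6 (-4.04).

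**Figure D5:**
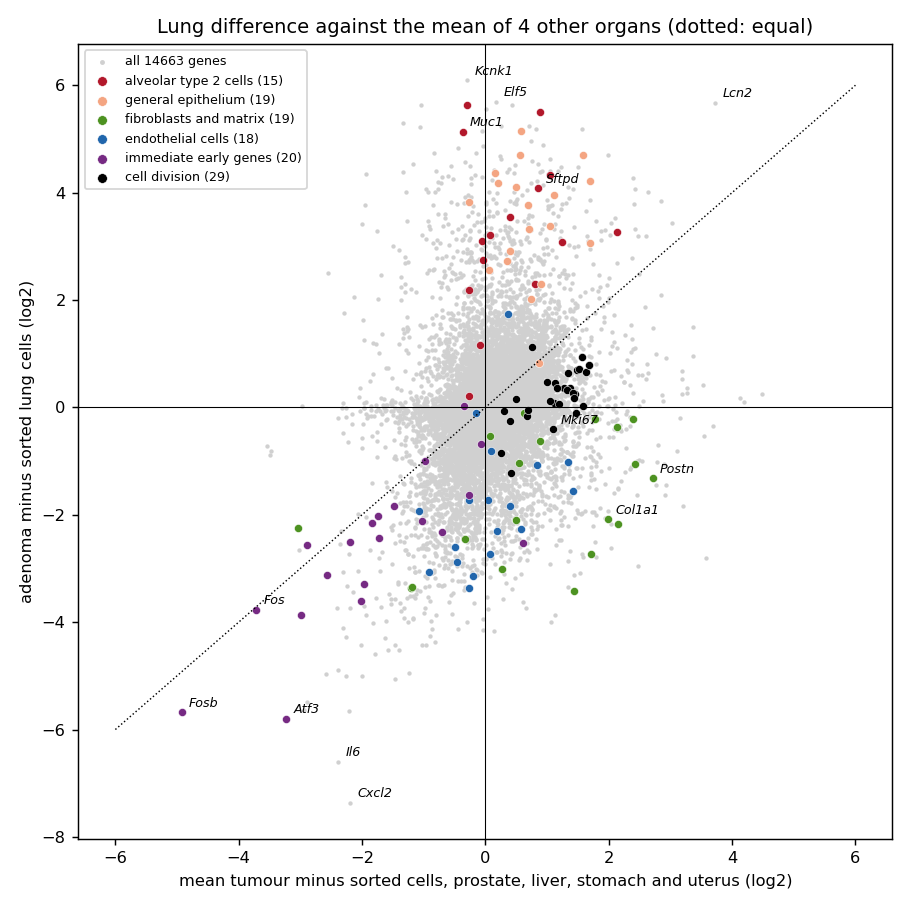
Difference of tumour and sorted cells in lung (y axis, log2) against the mean of the same difference in prostate, liver, stomach and uterus (x axis, log2), one point per gene: all 14663 genes in grey and 6 lists in colour, with the dotted line at equal differences. Kcnk1 (6.10 in lung, -0.29 in the others) and Elf5 (5.69 and 0.18) stand high in lung and near 0 in the others, while Col1a1 lies at -2.08 in lung and 1.99 in the others.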

How the data were processed

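RNA of 117 mouse samples was hybridised to Affymetrix arrays, 1 array a sample. The authors deposited log2 values made with RMA and Partek 6.6, per the submitters' processing notes; settings and any batch correction are not given in the sources used here. RMA corrects background, normalises between arrays and summarises the probes of a set, so a shift in total RNA cannot be seen. Upper quartiles still differed between arrays. There are 45141 probe sets, with values from 1.63 to 14.2. Of these, 28898 carry a single gene symbol in the platform annotation, 551 several and 15692 none. The probe sets of a single symbol give 17097 genes, of which 16937 matched RefSeq (GRCm38.p6) by Entrez ID. For a gene with several probe sets, that with the highest mean was taken, and probe sets of 1 gene can disagree.

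Genes above the array median in at least 3 arrays were kept, 14663 in all. Group means over all 117 samples were fitted with limma 3.58.1 (lmFit, eBayes; R 4.3.3), two-sided, with Benjamini-Hochberg adjustment over all genes tested and a threshold of 0.05; every adjusted p of a difference is from this fit unless a sentence names another. Adenomas were compared with the mean of both sorted lung group means, with each sorted group, and, by an interaction term, with 4 other organs. Only the titles of the sorted samples carry replicate numbers. The script was tested on simulated data.

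The members and the 34 gene lists were chosen with earlier results of these data known. Genes were named by rule: Prom1, list members, the 15 largest rises and falls among called genes without overlap between adenomas and sorted samples, the 10 largest interactions each way among genes also called in that direction without overlap, and the 10 genes with the largest SD among adenomas; clone-named and predicted genes were passed over. Alternatives were other filters, normalisations, probe set rules, references and sample sets, blocks, quality covariates, and each lung sample left out. Promoter windows are from RefSeq.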

Additional observations from a re-analysis of the deposited data

Results flagged for a closer look

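In 35 of the 48 genes followed array by array, the lung difference departed from the mean difference in prostate, liver, stomach and uterus, by the interaction term in limma at an adjusted p under 0.05. That term was called in 39.3% of all 14663 genes, and the 48 were chosen with earlier results of these data known. The values that follow are lung minus the mean of the other organs, in log2 units. Gkn2, of the oncofetal and other endoderm list, was higher in lung by 6.67, and the channel gene Kcnk1 by 6.39. Epithelial and alveolar genes were higher too: Egfl6 by 5.93, Elf5 by 5.51, Muc1 by 5.50, Slc34a2 by 3.28 and Sftpd by 3.22. Also higher were Sftpa1 by 3.15, Abca3 by 2.79, Lcn2 by 1.95, Ager by 1.84, Epcam by 1.41 and Nkx2-1 by 1.01. So were Meg3 by 4.52 and Dlk1 by 2.37, the receptors Fgfr2 by 4.25, Erbb3 by 4.06 and Met by 3.58, the ligand gene Ereg by 1.37, and the lipid enzymes Fasn by 3.35 and Scd1 by 1.89.

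Stromal and vessel genes were lower in lung, with interactions of -4.33 for Col3a1, -4.07 for Col1a1, -2.49 for Pecam1, -2.45 for Notch3 and -4.39 for the cardiac gene Tnnt2. The interaction was -5.17 for Cxcl2, -4.21 for Il6, -2.56 for Atf3 and -2.96 for Hspb1. It was -4.24 for Chil3, -2.46 for C1qa and -2.74 for H2-Ob, genes of macrophages and lymphocytes. Bpifa1 stood at -2.48 and Mki67 at -1.51. These values also hold any change in the other organs, so a negative one need not be a fall in the adenomas. In the lung difference itself, Chil3, Mki67 and Tnnt2 were not called.

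Among the 7 negative samples, 8 genes had 1 sample far from the rest by Dixon's criterion, which chance meets in about 1 in 20 groups. Sample 7 was the one for 6 of them, with Ccnd1 at 6.39, H2-Ob at 9.47, Hspb1 at 8.53, Notch3 at 4.87, Pecam1 at 6.54 and Xist at 11.2. Ereg stood at 6.74 in sample 1 and Nkx2-1 at 3.24 in sample 5. Groups of 14 and of 3 were not tested in this way.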

How the results depend on the processing

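Over 40 alternatives, the counts of called genes stayed within 1.5 times those reported, with 1 exception: against the positive samples alone, 2870 genes were called without positive sample 4, in place of 4419. With each lung sample left out in turn, the calls ran from 5409 to 6444 against both sorted groups, from 2870 to 4572 against the positive samples, from 5397 to 6075 against the negative samples and from 5251 to 5913 for the interaction. The median over all genes moved by less than 0.1 under every alternative. Of the 502 named genes, 249 were called in the same direction under every alternative, 53 lost their call under 1 or more, and 67 of the 200 not called gained one under 1 or more. One direction reversed: Prf1, a cytotoxic granule gene, was at -0.78 (limma, adjusted p = 2.69e-06) with the mean of all its probe sets in place of 0.06 (adjusted p = 0.725). The correlation of Sftpc with Mki67 among the adenomas moved to 0.31 without the 2 farthest samples and to -0.36 without adenoma 1, that of Sftpc with Ager to 0.38 without the 2 farthest, and that of Mki67 with Prom1 to 0.27 without adenoma 1; the cause was not tested. Xist and Eif2s3y lost their calls under 12 and 22 alternatives, with adjusted p up to 0.0817 and 0.095. The alternative without 3 arrays was chosen after seeing the data.

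The labels state no pairing behind the numbers that sorted samples share. The correlations of their deviations from the group means were 0.504, -0.144 and -0.0732, and only positive sample 1 correlated best with its own number. For positive samples 1, 2 and 4 and the negative samples whose codes differ by 1, the correlations were 0.116, 0.321 and -0.0962. None of these was the best for its positive sample. With the replicate number as a block, 6186 genes were called against both sorted groups, 4406 against the positive samples, 5832 against the negative samples and 5651 for the interaction. With sorted samples whose codes in the labels differ by 1 as a random block (consensus correlation 0.365, against 0.101 for the replicate number), the calls were 5923, 4530, 5738 and 5064 in the same order. For probe sets near the array medians, such as Nkx2-1 and Foxj1, and for those near the top of the scale, such as Sftpc and Scgb1a1, the signal limits what differences can be seen.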

Other observations

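Enzymes of foreign-compound and glutathione metabolism, which club cells are known for, were divided: of 19, 6 rose and 4 fell, against 23.4% and 19.7% of all genes. Without positive sample 4, 5 rose and 2 fell, and without adenomas 1 and 6 and negative sample 7, 5 rose and 6 fell. The list's mean level was 9.43 in adenoma 1 and 7.28 to 8.50 in the other adenomas. Gsta4, a glutathione transferase for products of lipid peroxidation, rose by 3.59 (SE 0.41, adjusted p = 1.52e-12), and Gclc, the catalytic subunit that limits glutathione synthesis, by 1.97 (SE 0.29, adjusted p = 8.25e-09), both without overlap between adenomas and sorted samples. Gpx2, a glutathione peroxidase of epithelia, rose by 2.41. The cytochrome Cyp1a1 fell by 3.05 (SE 0.49, adjusted p = 1.03e-07) and the haem oxygenase Hmox1 by 1.33 (SE 0.42, adjusted p = 0.00650), while Cyp1b1 rose by 1.34. Fmo1 fell by 3.08 and Aldh1a1 by 1.26. The call was lost under 24 of 40 alternatives for Cyp1b1 and under 8 for Aldh1a1, with adjusted p up to 0.548 and 0.146. Nqo1 was at 0.19 (adjusted p = 0.808) and the modifier subunit Gclm at -0.31 (adjusted p = 0.393).

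Of 18 proteases and inhibitors, 2 rose and 7 fell. Wfdc2, a protease inhibitor secreted by airway and gland epithelium, rose by 3.84 (SE 0.52, adjusted p = 6.68e-10), and Napsa was the other. Mmp2, a gelatinase of stromal cells, fell by 2.79 (SE 0.39, adjusted p = 2.91e-09), and Plaur, the urokinase receptor, by 1.91 (SE 0.35, adjusted p = 2.61e-06), both without overlap. Mmp3 fell by 2.05 and Mmp13 by 1.37, a call that Mmp13 lost under 19 of 40 alternatives (adjusted p up to 0.395). Mmp12, an elastase of macrophages, was at 0.64 (adjusted p = 0.365), and Mmp7, an epithelial protease, at -0.07 (adjusted p = 0.941). Of 9 interferon response genes, 4 fell and none rose, among them Rsad2 (by 2.80) and Irf7 (by 1.15). Of 8 mesothelial genes 1 fell, Nkain4, by 1.83. Against the negative samples alone 5 fell, with a median of -1.29, and against the positive samples alone 1 fell, with a median of 0.61.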
